A study of Mus musculus with 28 samples.

Results

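The 8 genes described here mark B cells and the antibody-secreting cells that B cells become: Jchain, Iglv1, Mzb1, Xbp1 and Prdm1 for the secreting state, and Cd79a, Cd79b and Ms4a1 for the B cell surface. They were taken as a named set, which was chosen with earlier results of these data known. Of the 17097 genes that the arrays measured, 7 of these 8 were among them, through 12 probe sets, and Mzb1 was not analysed here. A probe set is a group of short probes that reports 1 transcript or a few related ones. Where a gene had several, the brightest over the 28 arrays stands for it, and the others are given further on.

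RNA was measured on Affymetrix arrays in cells that carry CD45, the surface protein of leukocytes, sorted from mouse tumours. The tumours came from the melanoma line B16.F10 or the colon carcinoma line MC38. All host mice carried Foxp3Cre-YFP, a Cre recombinase with a yellow fluorescent protein expressed from Foxp3, the gene that defines regulatory T cells. Control mice had the genotype Foxp3Cre-YFP, and the others the genotype Nrp1L/LFoxp3Cre-YFP, in which floxed Nrp1 is removed in cells that express Foxp3. Those mice are called Nrp1-deleted here, and the deletion is aimed at regulatory T cells, not at B cells. The 12 groups are both genotypes at 6 settings of tumour and day, namely B16 early, B16 day 12, B16 day 18, MC38 day 6, MC38 day 12 and MC38 day 18. The early B16 arrays have day 8 in the title and day 6 in the source name. B16 day 18 and MC38 day 12 have 3 arrays in each genotype and the other settings 2. The labels give neither the age of the mice nor whether an array holds 1 mouse or a pool, and nothing says that replicates are separate mice. The p-values therefore measure the spread between arrays, which may be technical.

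The deposited values are log2 intensities with a median of 3.64 over all probe sets and arrays, and arrays of a group correlated at 0.984 or more. By the shape of their values the arrays fell into 3 sets that look as if they were normalized apart: B16 day 18 with MC38 day 12, MC38 day 6 with day 18, and B16 early with day 12. Every comparison of the genotypes lies inside a set, whereas levels are set side by side across sets only as a description. Nrp1 was lower on all deleted than on all control arrays at 6 of 6 settings, by 0.84 on average over the settings, and other CD45+ cells also express Nrp1. The 6 leukocyte genes averaged 11.72 or more on every array, so the sorted cells carry the label's defining markers. The 8 melanocyte genes, which mark cells without CD45, averaged 10.07 to 10.65 on control arrays of B16 day 18 and 3.93 or less on every MC38 array.

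Antibody-secreting cells arise when an activated B cell shuts down its B cell programme and enlarges its secretory apparatus. Prdm1 encodes Blimp-1, the repressor that closes the B cell programme, and Xbp1 encodes a transcription factor that expands the endoplasmic reticulum. Jchain encodes the chain that joins IgM or IgA units into polymers, Iglv1 a variable segment of the lambda light chain, and Mzb1 a chaperone of antibody assembly. Cd79a and Cd79b encode the signalling pair of the B cell receptor, and Ms4a1 encodes CD20, a surface protein that plasma cells lose. Only part of the set is restricted to the lineage. Xbp1 is used by many secretory and myeloid cells, and Prdm1 by activated and regulatory T cells and by macrophages.

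The stretches before the start sites are shown for members that behaved differently in the comparisons that follow. Jchain and Prdm1 both rose at B16 day 12, where Xbp1 fell, and Cd79a stayed near the median of all values. In the fit of all arrays, Prdm1 alone of these 4 was called higher at B16 day 18 and MC38 day 18. At MC38 day 18, Jchain and Xbp1 were also higher without overlap of the genotypes, which held for 19.7% of genes. RefSeq (GRCm38.p6) supplied the 250 bases directly upstream of a start site for 4 of the 8 genes, read 5′ to 3′ in the direction of the gene. For Prdm1 this start lies inside the span of the gene (44437174 to 44528558), so it is not the outermost start. Capitals mark CAGGTG, the E-box bound by E2A, a B lineage factor, and GAGGAA or its reverse TTCCTC, the core bound by PU.1, a factor of B and myeloid cells.
Jchain, chr5:88527898-88528147, minus strand: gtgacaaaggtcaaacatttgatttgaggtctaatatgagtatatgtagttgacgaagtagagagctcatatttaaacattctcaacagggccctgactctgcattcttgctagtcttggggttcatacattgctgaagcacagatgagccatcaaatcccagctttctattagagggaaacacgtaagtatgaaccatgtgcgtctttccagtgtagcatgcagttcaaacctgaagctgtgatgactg
Xbp1, chr11:5520391-5520640, plus strand: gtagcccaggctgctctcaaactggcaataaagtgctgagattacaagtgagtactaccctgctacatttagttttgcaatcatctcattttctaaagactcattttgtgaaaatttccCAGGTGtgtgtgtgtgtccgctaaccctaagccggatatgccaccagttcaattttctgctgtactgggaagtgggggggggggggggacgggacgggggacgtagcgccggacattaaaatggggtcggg
Prdm1, chr10:44458749-44458998, minus strand: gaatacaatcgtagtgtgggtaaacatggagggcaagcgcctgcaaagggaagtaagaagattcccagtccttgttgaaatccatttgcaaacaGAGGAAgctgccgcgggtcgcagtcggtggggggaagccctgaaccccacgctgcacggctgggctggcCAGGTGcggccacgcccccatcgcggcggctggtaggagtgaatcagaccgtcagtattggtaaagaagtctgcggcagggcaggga
Cd79a, chr7:24897247-24897496, plus strand: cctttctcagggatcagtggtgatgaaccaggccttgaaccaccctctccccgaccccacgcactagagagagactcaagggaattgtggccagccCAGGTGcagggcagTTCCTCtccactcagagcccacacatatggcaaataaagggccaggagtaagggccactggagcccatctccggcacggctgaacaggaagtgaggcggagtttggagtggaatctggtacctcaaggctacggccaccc

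Both strands were searched for 4 motifs, and 32851 promoter windows of the same length give the background. CAGGTG, which was added after the sequences had been seen, occurs in 17.2% of all windows, and its match starts 131 bases before the start site of Xbp1, 87 before that of Prdm1 and 154 before that of Cd79a. The PU.1 core occurs in 23.3% of windows, and in Prdm1 and Cd79a it starts 156 and 140 bases before the start site. Neither the octamer ATGCAAAT of immunoglobulin promoters nor CCCNNGGG, a form of the letters bound by the B lineage factor EBF, occurs exactly in any of the 4. They are present in 1.6% and 11.8% of windows. The Jchain window holds none of the 4 motifs. A match is a run of letters and not a measured binding site. Only exact matches were counted, so a missing match does not mean that a window lacks a site.

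Jchain was the member with the widest range, from 2.32 to 9.42 over the 28 arrays. In B16 it lay between 4.28 and 9.42 and in MC38 between 2.32 and 3.76, so its lowest B16 array was above its highest MC38 array, with the sets as a limit. Its group means were highest in deleted B16 tumours at day 12 (8.99 ± 0.61, SD, n = 2), followed by the deleted and control groups of B16 day 18 (8.11 ± 0.93 and 7.82 ± 1.24, n = 3 each), and these 3 neighbours overlapped. The early groups and the day 12 controls of B16 followed between 5.0 and 6.10, again with overlapping neighbours, and the 6 MC38 means lay between 2.81 and 3.56.

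Iglv1 also reached its highest values in B16, with array values of 3.81 to 9.75 there and 2.82 to 4.08 in MC38, but unlike those of Jchain its tumours overlapped. Its highest means were those of deleted B16 tumours at day 12 (8.0 ± 2.47, n = 2) and day 18 (7.86 ± 1.42, n = 3), which overlapped each other and the day 18 controls (5.51 ± 1.49, n = 3). The other 9 groups lay between 2.94 and 4.20, close to the median of all values. In MC38 tumours, Jchain and Iglv1 were therefore near the median of all values, where array intensities can understate a difference.

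Xbp1 read 10.28 to 11.42 over the 28 arrays and had the smallest spread between replicates of the 7 genes. Its highest group means were those of deleted MC38 tumours at day 6 (11.26 ± 0.23, n = 2) and control B16 tumours at day 12 (11.25 ± 0.04, n = 2), which overlapped. Its lowest were the day 12 deleted, day 18 deleted and day 18 control groups of B16, at 10.47, 10.43 and 10.39, which overlapped one another. Prdm1 lay between 6.86 and 8.51. Its highest mean was that of deleted B16 tumours at day 12 (8.42 ± 0.06, n = 2) and its lowest that of B16 controls at day 18 (7.10 ± 0.23, n = 3), next to MC38 controls at day 18 (7.32 ± 0.18, n = 2), with which it overlapped.

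The B cell surface genes were distributed otherwise. Cd79b lay between 5.03 and 7.66 and was brightest in MC38 controls at day 18 (7.61 ± 0.06, n = 2), where Jchain was near background. Ms4a1 ranged from 2.79 to 6.6 and had its highest means in B16 tumours at day 12, at 5.60 ± 0.07 in controls and 5.56 ± 1.48 in deleted mice (n = 2 each). Cd79a stayed between 3.33 and 4.19 on all 28 arrays, near the median of all values, and all its neighbouring groups overlapped. The spread between replicates differed widely. The within-group SD of Jchain, Iglv1 and Ms4a1 was larger than that of 99.7%, 99.9% and 99.8% of genes, and that of Xbp1 was larger than that of only 12.8%.

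**Figure D1:**
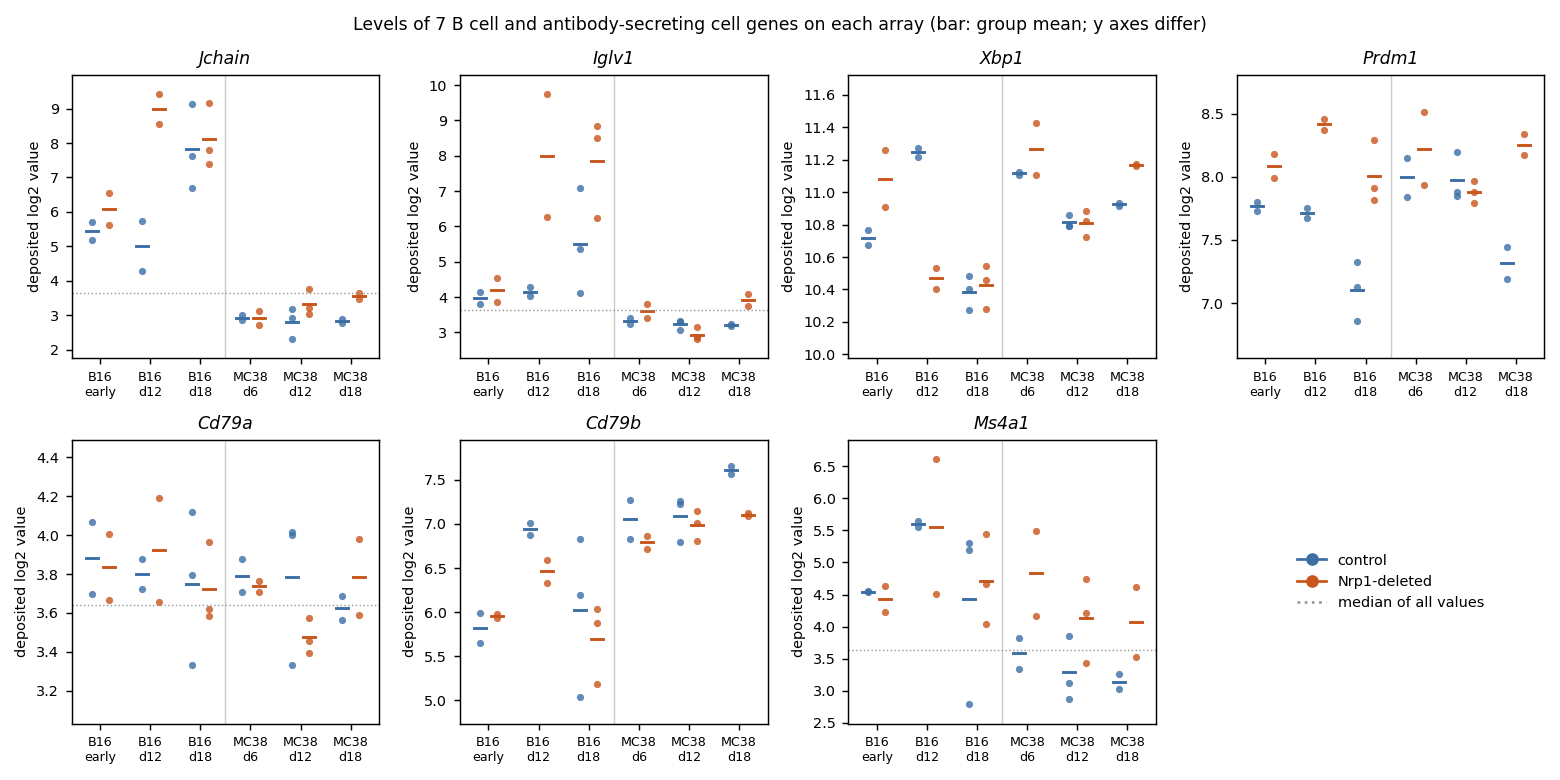
Deposited log2 values (y axis, a separate scale for each gene) of the 7 measured genes on each of the 28 arrays, by tumour and day (x axis), with control arrays in blue, Nrp1-deleted arrays in orange, group means as bars and the median of all values (3.64) as a dotted line. Jchain and Iglv1 stand high in deleted B16 tumours at day 12 and in B16 tumours at day 18 and lie near the dotted line in MC38, while Cd79a lies near it everywhere.

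The main comparison of the study sets Nrp1-deleted against control hosts. Averaged over the 6 settings, 3 antibody-secreting cell genes were higher in deleted hosts: Jchain by 1.03 ± 0.23 on the log2 scale (difference ± standard error), Iglv1 by 1.18 ± 0.32 and Prdm1 by 0.50 ± 0.07. The limma adjusted p-values were 0.00117, 0.00619 and 7.36e-06. Jchain and Iglv1 were near the median of all values at some settings, so no fold is given for them here. Limma with Benjamini-Hochberg adjustment over all genes at 0.05 called 28.8% of all genes in this comparison (11% higher and 17.9% lower), against 3 of the 7 members, all higher. The secreting genes measured had a median difference of 0.76 and the 3 surface genes one of -0.02, beside -0.03 over all genes. Xbp1 differed by 0.00 ± 0.04, Cd79a by -0.02 ± 0.10, Cd79b by -0.26 ± 0.13 and Ms4a1 by 0.52 ± 0.26, and none of these passed. In sorted mixtures such as these, more cells of a type and more RNA per cell cannot be told apart. Without the B16 day 12 arrays, a choice made after seeing the data, Jchain (0.44, adjusted p = 0.208) and Iglv1 (0.65, adjusted p = 0.109) did not pass, and Xbp1 was called higher (0.16, adjusted p = 0.0139).

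In B16 tumours, averaged over the 3 days, the difference was 1.64 ± 0.32 for Jchain (adjusted p = 0.00047), 2.14 ± 0.45 for Iglv1 (adjusted p = 0.000924) and 0.64 ± 0.10 for Prdm1 (adjusted p = 2.87e-05). Limma called 22.6% of all genes in B16, 10.3% higher and 12.3% lower. Xbp1 (-0.12 ± 0.06), Cd79a (0.02 ± 0.14), Cd79b (-0.22 ± 0.19) and Ms4a1 (0.04 ± 0.37) did not pass. An exact permutation of the genotype labels within days, over 720 arrangements with a smallest possible p of 0.00278, called only Prdm1 after adjustment over all genes (exact p = 0.00278, adjusted p = 0.0398). Under that test Jchain (exact p = 0.0583, adjusted p = 0.198) and Iglv1 (exact p = 0.0194, adjusted p = 0.101) did not pass, although both were higher on average on 3 of 3 days. Without the day 12 arrays the limma values were 0.47 for Jchain (adjusted p = 0.515) and 1.29 for Iglv1 (adjusted p = 0.0641).

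In MC38 tumours the corresponding differences were 0.42 ± 0.32 for Jchain, 0.22 ± 0.45 for Iglv1, 0.13 ± 0.06 for Xbp1 and -0.29 ± 0.19 for Cd79b, none of which passed. Prdm1 was higher by 0.36 ± 0.10 (limma adjusted p = 0.0121), where limma called 19.3% of all genes, 6.97% higher and 12.3% lower. This call was lost without the second control array of day 6 (0.31, adjusted p = 0.0554) or of day 18 (0.32, adjusted p = 0.0516), without the second deleted array of day 6 (0.26, adjusted p = 0.0683), and under exact permutation (exact p = 0.122, adjusted p = 0.307). Ms4a1, the CD20 gene, was 1.01 ± 0.37 higher and missed the threshold by limma (adjusted p = 0.0633) and by exact permutation (exact p = 0.00833, adjusted p = 0.0569), with a positive difference on 3 of 3 days. Limma did call it with array weights (adjusted p = 0.0456) and in a fit of the MC38 groups alone (adjusted p = 0.014).

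The B16 difference minus the MC38 difference was 1.92 ± 0.64 for Iglv1 (limma adjusted p = 0.0455), -0.25 ± 0.08 for Xbp1 (0.04), 1.22 ± 0.46 for Jchain (0.0793) and 0.28 ± 0.14 for Prdm1 (0.202), where 14% of all genes were called. The 2 calls lie close to the threshold: leaving out 1 array at a time ended the Iglv1 call for 25 of the 28 arrays, with values down to 1.34 without the second deleted array of B16 day 12, and the Xbp1 call for 19 of them. Without the B16 day 12 arrays the Xbp1 difference was 0.07.

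**Figure D2:**
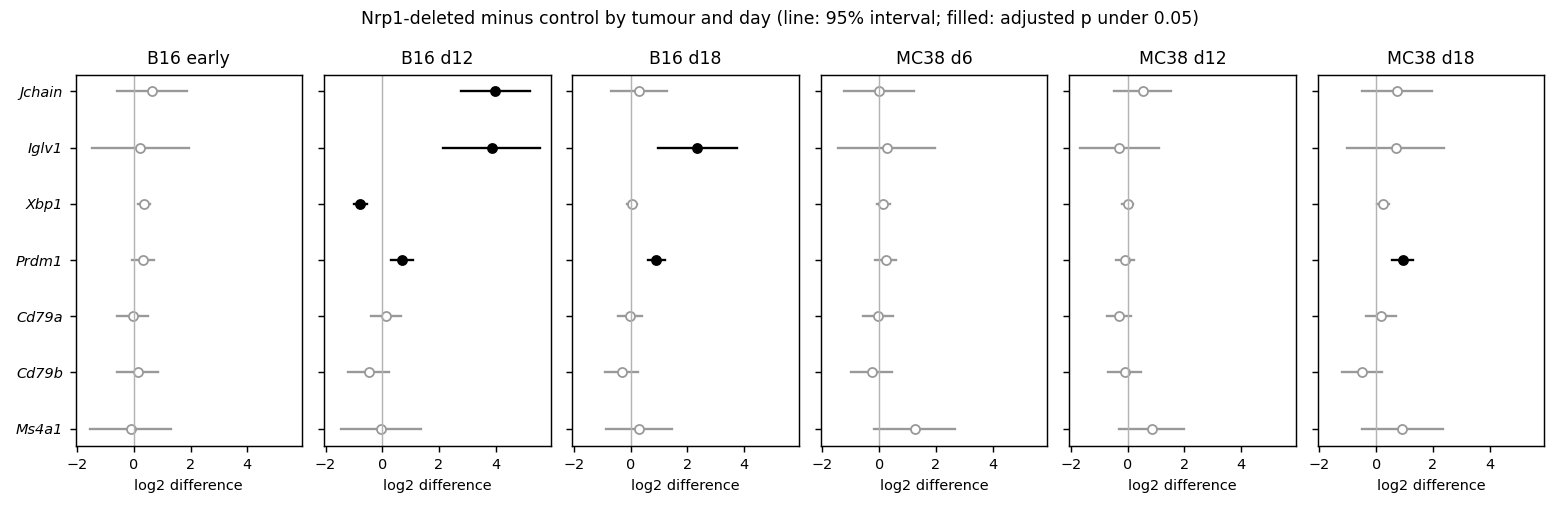
Log2 difference, Nrp1-deleted minus control (x axis), of the 7 genes (rows) at each of the 6 settings (panels), with 95% intervals and filled points where the limma adjusted p was under 0.05. Filled points lie in the B16 day 12 and day 18 panels and, for Prdm1, in the MC38 day 18 panel, and Xbp1 at B16 day 12 is the filled point below 0.

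At B16 day 12, 4 of the 7 members were called, where limma called 17% of all genes (7.8% higher and 9.17% lower). Jchain read 4.28 and 5.72 on control arrays against 8.55 and 9.42 on deleted arrays. Iglv1 read 4.02 and 4.27 against 6.26 and 9.75. Both deleted arrays lay above both controls for each gene, and for Iglv1 the deleted arrays lay farther from each other than the lower one did from the controls. The difference was 3.99 ± 0.59 for Jchain (limma adjusted p = 2.42e-05) and 3.86 ± 0.83 for Iglv1 (limma adjusted p = 0.00156). The Iglv1 controls and the lower Jchain control (4.28) lay near the median of all values. The size of both rises is therefore uncertain and no fold is given. Without the second deleted array the Iglv1 difference was 2.11 and did not pass (adjusted p = 0.0996).

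The regulators parted at the same setting. Prdm1 read 7.68 and 7.76 on control arrays and 8.46 and 8.37 on deleted arrays, a rise of 0.70 ± 0.18 (limma adjusted p = 0.00803). Xbp1 read 11.22 and 11.27 on control arrays against 10.40 and 10.53 on deleted arrays. All its control values lay above its deleted values, and Xbp1 was 1.71-fold lower in deleted hosts, at -0.78 ± 0.11 (limma adjusted p = 7.91e-06). The Prdm1 call was lost without the first control array or the first deleted array (0.66 in both cases, adjusted p = 0.0677 and 0.0697). Thus Jchain and Iglv1 were higher on the arrays on which Xbp1, the factor of the secretory apparatus, was lower.

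The B cell surface genes did not follow Jchain at B16 day 12. Cd79b read 6.87 and 7.01 on control arrays and 6.33 and 6.59 on deleted arrays, without overlap but with a difference of -0.48 ± 0.34 that did not pass. Arrays of the genotypes failed to overlap for 31.6% of genes in the higher and 24.1% in the lower direction at this setting. Ms4a1 read 5.55 and 5.65 against 4.51 and 6.6, so its deleted arrays lay on both sides of the controls (-0.05 ± 0.69). Cd79a differed by 0.12 ± 0.26.

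At B16 day 18, 2 members were called, where limma called 18.8% of all genes (7.54% higher and 11.3% lower). Prdm1 read 7.32, 6.86 and 7.13 on control arrays and 7.91, 8.30 and 7.82 on deleted arrays. The genotypes did not overlap, which held for 13.6% of genes in this direction, and the rise was 0.90 ± 0.15, or 1.87-fold (limma adjusted p = 9.95e-05). Iglv1 read 5.35, 4.11 and 7.08 against 8.51, 8.84 and 6.23, with 1 deleted array below the highest control. Its difference was 2.35 ± 0.68 (limma adjusted p = 0.0155), and the call was lost without control replicate 2 (1.65, adjusted p = 0.12), deleted replicate 1 (2.02, adjusted p = 0.0775) or deleted replicate 2 (1.86, adjusted p = 0.105) and in a fit of these 2 groups alone (adjusted p = 0.0787).

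Jchain did not separate the genotypes at B16 day 18. It read 7.63, 6.69 and 9.14 on control arrays and 7.80, 9.16 and 7.38 on deleted arrays, a difference of 0.29 ± 0.48. Control and deleted arrays covered almost the same range, and both genotypes lay above every early B16 array of Jchain (5.20 to 6.56), across sets. Xbp1 (0.04 ± 0.09) and the surface genes Cd79a (-0.03 ± 0.21), Cd79b (-0.32 ± 0.28) and Ms4a1 (0.29 ± 0.56) did not pass either. The second control array read lowest of the 3 controls for Jchain, Iglv1, Prdm1, Cd79b and Ms4a1, with Ms4a1 at 2.79 against 5.19 and 5.30 on the others. Without that array Cd79b was called lower at this setting (-0.81, limma adjusted p = 0.0118), as it was over the B16 days (-0.39, adjusted p = 0.0408) and over the 6 settings (-0.34, adjusted p = 0.00763).

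In early B16 tumours none of the 7 members was called, where limma called 0.445% of all genes. Jchain read 5.72 and 5.20 on control arrays and 5.63 and 6.56 on deleted arrays, and Iglv1 3.81 and 4.13 against 4.55 and 3.85, both with overlap. Prdm1 read 7.73 and 7.80 against 7.99 and 8.18, and Xbp1 10.67 and 10.77 against 10.91 and 11.26. For Prdm1 and Xbp1 the deleted arrays lay above the controls, which was so for 21.2% of genes. The differences, 0.32 ± 0.18 for Prdm1 and 0.36 ± 0.11 for Xbp1, did not pass, though Xbp1 was called without deleted replicate 1 (0.54, adjusted p = 0.015). Prdm1 was thus the member whose deleted arrays lay above all its controls on each of the 3 B16 days, a pattern shown by 3.14% of genes.

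In MC38 tumours, Prdm1 at day 18 was the single call of a member on a single day. It read 7.44 and 7.19 on control arrays and 8.18 and 8.34 on deleted arrays, without overlap. The rise of 0.94 ± 0.18, or 1.92-fold (limma adjusted p = 0.00327), stood beside 5.36% of all genes called (3.12% higher and 2.24% lower). It was lost without the second control array (0.81, adjusted p = 0.0721) or the second deleted array (0.86, adjusted p = 0.0557). The genotypes overlapped on the earlier days, on which Prdm1 read 8.15 and 7.84 against 7.94 and 8.51 (day 6) and 7.88, 8.19 and 7.85 against 7.88, 7.97 and 7.79 (day 12).

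The other genes at MC38 day 18 gave smaller steps that a pooled estimate of the spread did not call. Jchain read 2.88 and 2.76 on control arrays and 3.64 and 3.47 on deleted arrays, and Iglv1 3.19 and 3.25 against 4.08 and 3.75. Xbp1 read 10.91 and 10.94 against 11.16 and 11.17, and Ms4a1 3.26 and 3.03 against 4.62 and 3.53. All 4 were higher without overlap, which held for 19.7% of genes. Cd79b read 7.66 and 7.57 against 7.09 and 7.12, lower without overlap, which held for 32.6% of genes. The spread of all 12 groups is larger for Jchain and Iglv1 than that of these 4 arrays, and a fit on these arrays alone called 5 members, namely Jchain, Iglv1, Xbp1 and Prdm1 as higher and Cd79b as lower.

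At MC38 day 6 and day 12 none of the 7 members was called, where limma called 2.97% and 8.59% of all genes. Jchain read 2.87 and 2.99 on control arrays and 2.72 and 3.14 on deleted arrays at day 6. Its day 12 values were 2.32, 2.93 and 3.17 for controls and 3.76, 3.21 and 3.03 for deleted mice. Ms4a1 at day 6 read 3.83 and 3.34 in controls and 5.49 and 4.17 in deleted mice, without overlap, which held for 16.2% of genes in this direction. Its day 12 values of 3.12, 3.86 and 2.88 in controls overlapped those of 4.21, 3.43 and 4.75 in deleted mice. The Ms4a1 differences of 1.25 ± 0.69 and 0.84 ± 0.56 did not pass.

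The course over time was compared where both days lie in the same set of arrays. From the early day to day 12 in B16, averaged over the genotypes, Jchain rose by 1.22 ± 0.42 (limma adjusted p = 0.0372), Iglv1 by 1.99 ± 0.59 (0.0144) and Cd79b by 0.81 ± 0.24 (0.0164), where 23.2% of all genes were called (13.1% higher and 10.1% lower). Without the second deleted array of day 12 none of these 3 calls remained, with values of 1.00, 1.12 and 0.75. The Jchain call was also lost without the second day 12 control (0.85), either early control (1.35 and 1.09) or the first early deleted array (0.99), that of Iglv1 without the second early deleted array (1.81), and that of Cd79b without the second day 12 control (0.78) or the second early control (0.73). With all arrays, the Jchain call was also lost with cyclic loess (adjusted p = 0.0503), centring on the 75th percentile (0.0523), no variance trend (0.0515) or a robust trend (0.0802). From day 6 to day 18 in MC38 no member passed, where 12.8% of all genes were called.

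Within genotypes, the rise of Jchain and Iglv1 passed in deleted mice. There, Jchain rose from early to day 12 by 2.89 ± 0.59 (limma adjusted p = 0.00129) and Iglv1 by 3.80 ± 0.83 (0.00219), while Xbp1 fell by 0.61 (0.00028), with 16.2% of all genes called. In control mice Jchain (-0.46 ± 0.59) and Iglv1 (0.17 ± 0.83) did not pass, while Xbp1 rose by 0.53 ± 0.11 (0.000984) and Cd79b by 1.12 ± 0.34 (0.0269), with 16.1% of all genes called. In MC38 controls Prdm1 fell by 0.68 from day 6 to day 18 (limma adjusted p = 0.0191, with 8.94% of all genes called), and in MC38 deleted mice it differed by 0.03 ± 0.18, where 1.94% of all genes were called.

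The differences between genotype effects were tested as such. The genotype effect at B16 day 12 exceeded that at the early day by 3.35 ± 0.84 for Jchain (limma adjusted p = 0.0148), and for Xbp1 it was lower by 1.14 on the log2 scale, at -1.14 ± 0.15 (4.6e-05), where 6.29% of all genes were called (1.88% higher and 4.41% lower). For Iglv1 the corresponding 3.63 ± 1.17 did not pass (0.0669). The Jchain call was lost without the first control (2.62, adjusted p = 0.118) or the second deleted array of day 12 (2.91, 0.079), or without the first control (3.09, 0.0777) or the first deleted array of the early day (2.89, 0.0987). A comparison of day 12 with day 18, which was chosen after seeing the data and crosses sets, gave 3.69 ± 0.76 for Jchain (0.00312) and -0.82 ± 0.14 for Xbp1 (0.000414), where 6.07% of all genes were called. For MC38 day 18 against day 6 no member passed, where 0.0819% of all genes were called.

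Further probe sets existed for 3 genes, and most repeated these patterns. The second probe set of Iglv1 correlated with the first at 0.956 over the 28 arrays. It gave a genotype difference of 2.71 at B16 day 12, which did not pass when every probe set was fitted as a feature of its own (adjusted p = 0.0923), and 3.63 at day 18, which passed (adjusted p = 0.0036). The largest difference of Iglv1 thus falls on day 12 by one probe set and on day 18 by the other. Both can match related lambda transcripts, as their names end in s_at, so the value is that of lambda variable segments rather than of 1 segment.

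Xbp1 had 3 further probe sets. Those 2 that were bright (means of 10.13 and 9.30) fell at B16 day 12 by 0.80 and 0.75, beside the 0.78 of the brightest. The fourth, at a mean of 4.16, lay near background and differed by -0.25, which did not pass. Over the 3 B16 days the third probe set was called lower (-0.23, adjusted p = 0.0145), while the brightest (-0.12) was not. For Ms4a1 the second probe set was dimmer, at a mean of 3.30, and its differences in MC38 were 0.35 to 0.37 where those of the brightest were 0.84 to 1.25. In B16 its differences were -0.22 to -0.29, and none of its single-day differences passed.

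**Figure D3:**
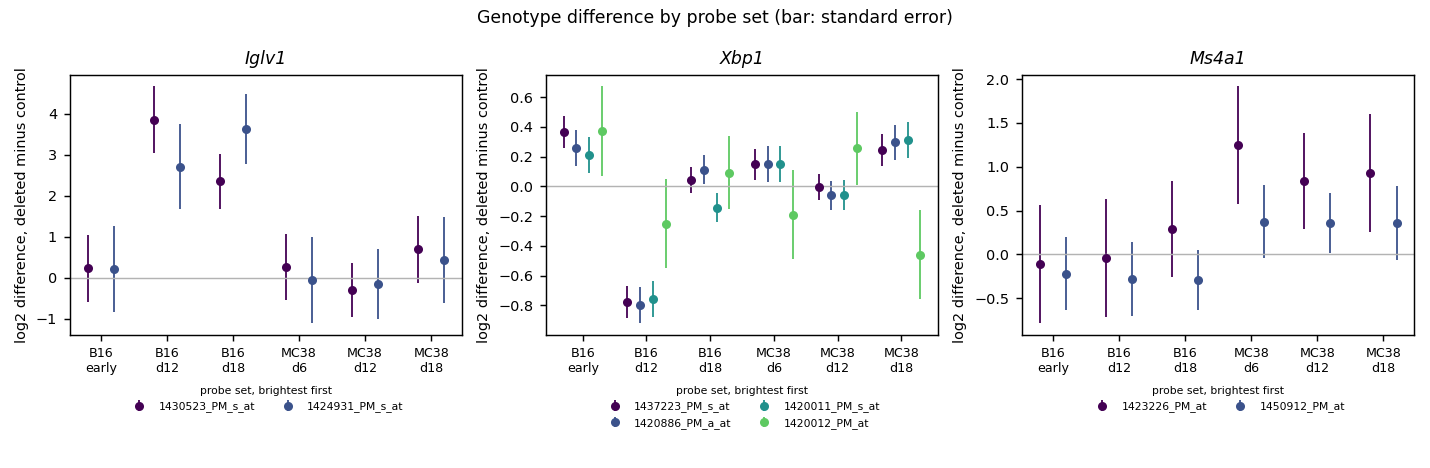
Log2 difference, Nrp1-deleted minus control (y axis, a separate scale for each gene), at the 6 settings (x axis) for each probe set of Iglv1, Xbp1 and Ms4a1, with standard errors as bars. The 3 bright Xbp1 probe sets lie together near -0.8 at B16 day 12, the Iglv1 probe sets exchange their order between B16 days 12 and 18, and both Ms4a1 probe sets lie above 0 in MC38.

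Other antibody genes gave a partial picture. The probe table named 16 immunoglobulin segments or constant regions, Iglv1 included, a list drawn up after seeing the data. At B16 day 12, 5 of the 16 were called higher and 0 lower, beside 7.8% and 9.17% of all genes. The median of the 16 was 0.27, beside 0.04 over all genes. Igkj1, a kappa joining segment, read 9.11 and 9.53 on control arrays and 10.84 and 11.48 on deleted arrays, a rise of 1.84 ± 0.40 (limma adjusted p = 0.00188). Ighm, the IgM constant region, read 3.01 and 2.74 against 3.22 and 5.25, so that its call (1.36 ± 0.40, adjusted p = 0.0178), against controls under the median of all values, rests on the deleted array on which Iglv1 was also highest. A kappa variable segment (0.41 ± 0.14) and Ighv1-12 (0.31 ± 0.11) differed by less. Over all arrays Ighv1-12 averaged 2.59, and each kappa variable segment among the 16 averaged 3.38 or less. These averages lie under the median of all values, so both small differences were read near background and give no fold.

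At B16 day 18, 2 of the 16 were called higher and 0 lower, beside 7.54% and 11.3% of all genes. Igk-V21, a kappa variable probe set, read 3.19, 2.39 and 3.01 on control arrays and 5.22, 4.80 and 4.92 on deleted arrays, without overlap, and was called higher (limma adjusted p = 1.36e-07). Its controls all lay under the median of all values, so the fitted difference of 2.11 ± 0.22 gives no fold. At day 12 it read 2.99 and 2.87 on control arrays and 2.86 and 4.06 on deleted arrays, with overlap. Igkj1 read 10.82, 10.23 and 11.44 against 10.75, 11.46 and 10.79, with overlap, as Jchain had. Igha, the IgA constant region, lay between 2.43 and 3.26 on all 28 arrays, under the median of all values. In MC38 at day 18, Igkj1 was the single call of the 16, beside 5.36% of all genes called. It read 6.09 and 6.32 against 8.55 and 7.93 (2.03 ± 0.40, limma adjusted p = 0.00387). Igkj1 thus read 5.47 or more on every MC38 array, while Jchain and Iglv1 stayed near the median of all values there. The probe sets of Igkj1 and Igk-V21 can match other transcripts, as their names end in x_at. Their values may therefore not be those of 1 segment.

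Genes of plasma cells were called in both directions. At B16 day 12, 2 of the 13 measured were called higher and 2 lower, with a median of -0.11, beside 7.8% and 9.17% of all genes and a median of 0.04 over them. Pim2, a survival kinase (1.52 ± 0.32), and Cd28 (1.33 ± 0.43), which T cells also express, were higher. Tnfrsf13b, the receptor TACI (-1.48 ± 0.26), and Ell2, an elongation factor of immunoglobulin processing (-1.29 ± 0.24), were lower. At MC38 day 18, Irf4, a transcription factor of plasma cells and of activated T cells, read 4.65 and 4.39 on control arrays and 6.49 and 7.04 on deleted arrays. Its rise of 2.24 ± 0.40 and that of Cd28 (2.62 ± 0.43) were the 2 calls among the 13, beside 5.36% of all genes called at this setting.

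Of 18 genes of the unfolded protein response and secretory targets of Xbp1, 0 were called higher and 6 lower at B16 day 12, and 12 did not pass, beside 7.8% of all genes called higher and 9.17% lower. Their median was -0.21, beside 0.04 over all genes. Those called lower included Pdia6, a protein disulphide isomerase (-0.69 ± 0.15), Sdf2l1 (-0.57 ± 0.14), the chaperone Calr (-0.47 ± 0.08) and the translocon gene Ssr3 (-0.43 ± 0.09). At B16 day 18, 0 were called higher and 3 lower, with a median of -0.10, beside 7.54% and 11.3% of all genes. At MC38 day 18, 1 was called higher and 1 lower, beside 3.12% and 2.24% of all genes.

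Among B cell identity genes and the signalling chain of the B cell receptor, more were called lower than higher at B16 day 12. Of 16 identity genes, Cd37 was called higher (0.86 ± 0.19), and Cd72 (-0.97 ± 0.26), Fcrla (-1.43 ± 0.41) and Cd22 (-1.12 ± 0.39) lower, with a median of -0.36. Pax5, which defines the lineage, lay between 2.22 and 3.31 on all 28 arrays, under the median of all values. Of 10 signalling genes, 1 was called higher and 6 lower, with a median of -0.74 (7.8% and 9.17% of all genes, with a median of 0.04), among them Btk (-2.52 ± 0.28), Plcg2 (-1.43 ± 0.17), Blnk (-1.91 ± 0.42) and Cd81 (-1.32 ± 0.21). Btk and Plcg2 are also used by macrophages. Of 9 germinal centre and activation genes, 0 were higher and 3 lower, namely Cd83 (-2.12 ± 0.30), Cd40 (-1.78 ± 0.27) and Gcsam (-1.68 ± 0.24). Cd72, Cd81, Blnk, Cd40 and Cd83 averaged 7.99 or more over the 28 arrays, beside 2.88 for Pax5. Cd22, Fcrla and Gcsam averaged 5.58, 3.74 and 3.42. Which cells these genes report here was not tested.

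Factors that act on B cells changed in both directions. At B16 day 12, Il21, a T cell cytokine that drives plasma cell formation, rose by 2.32 ± 0.35 and Il10 by 1.29 ± 0.44, whereas Tnfsf13, the survival factor APRIL, was lower (-2.19 ± 0.24), among 13 genes measured. At B16 day 18, Il4 (3.0 ± 0.60), Il6 (2.50 ± 0.40) and Il21 (1.04 ± 0.29) were higher and Tnfsf13 was lower (-0.56 ± 0.19). At MC38 day 18, Il6 (3.17 ± 0.49) and Ltb (1.23 ± 0.32) were higher and Cxcl13, the B cell attractant, lower (-0.91 ± 0.18).

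Markers of other cells also differed between the genotypes, and their part in these results was not tested. At B16 day 12, the 10 macrophage genes were all called lower, with a list mean of 9.91 to 10.03 on control arrays and 6.22 to 6.81 on deleted arrays. The 8 melanocyte genes were also all lower, at 7.73 to 7.85 against 5.30 to 6.25. Of 9 plasmacytoid dendritic cell genes 4 were lower, at 7.01 to 7.07 against 6.52 to 6.80, of 8 basophil and mast cell genes 2 were higher, at 4.0 to 4.08 against 5.08 to 6.35, and of 9 T cell genes 1 was higher, at 9.98 to 10.20 against 10.87 to 10.96. The 6 leukocyte genes had 0 calls, at 12.31 to 12.35 against 12.37 to 12.38. Of all genes, limma called 7.8% higher and 9.17% lower at this setting, so 1 call among 9 T cell genes is near that share.

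At B16 day 18, all 10 macrophage genes (9.12 to 9.91 on control arrays, 7.55 to 8.29 on deleted arrays) and all 8 melanocyte genes (10.07 to 10.65 against 6.32 to 7.36) were called lower, and 8 of 8 basophil and mast cell genes higher (3.29 to 3.93 against 4.33 to 7.62). Limma called 7.54% of all genes higher and 11.3% lower there. Mcpt8, a basophil protease, read 3.10, 2.78 and 4.67 on control arrays and 8.76, 7.83 and 5.57 on deleted arrays, and Iglv1 was lowest on the same deleted array. At MC38 day 18, where Prdm1 rose, 8 of 9 T cell genes were called higher (7.03 to 7.43 against 8.48 to 9.08), with 0 of 10 macrophage genes called (11.66 to 11.72 against 11.24 to 11.37). Limma called 3.12% of all genes higher and 2.24% lower at that setting. Within these lists, no macrophage or T cell gene had a group mean under the median of all values in any group, while 5 or 6 of the 8 melanocyte genes did in every MC38 group.

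**Figure D4:**
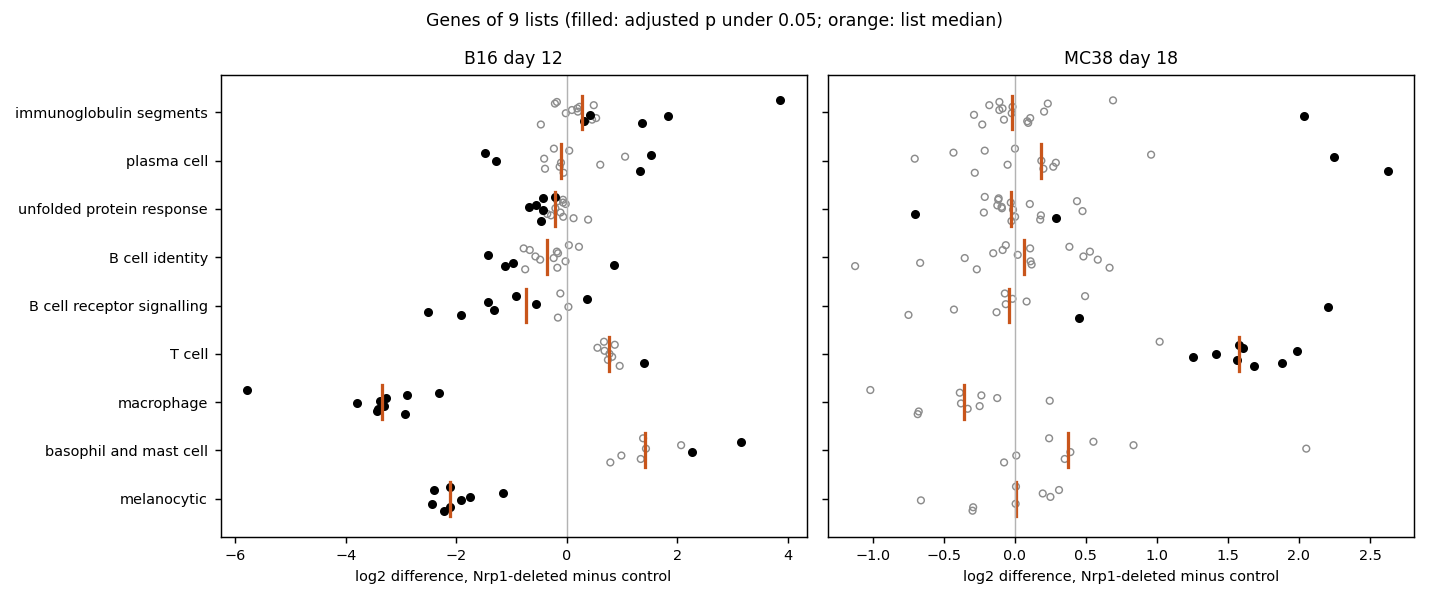
Log2 difference, Nrp1-deleted minus control (x axis, a separate scale for each panel), of every measured gene of 9 lists (rows) at B16 day 12 and at MC38 day 18, filled where the limma adjusted p was under 0.05, with the list median in orange. At B16 day 12 the macrophage and melanocytic genes lie below 0 and 5 immunoglobulin segments above it, and at MC38 day 18 the T cell genes lie above 0.

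The genes most like each member were found by Pearson correlation over the 28 arrays, after the mean of each tumour and day was removed, among 10091 genes above the median of all values. The difference between the genotypes was left in, and the arrays share tumours, days and processing, so these values are descriptions. Iglv1 was most like Mcpt8 (r = 0.84), followed by Tprgl, Ppil2, Idnk and Smpd5. Jchain was most like Psmb1, a proteasome subunit (0.81), followed by Cetn2, Ube2h, Ltk and Arhgap45. Prdm1 was most like Runx3, a transcription factor of cytotoxic T cells (0.91), followed by Lrrc8c, Dhx16, Plcl2 and Usp42.

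Xbp1 was most like Gpr146 (0.88), Slc35b1, Msrb1, Atp6v1b2 and Krt80. Cd79b was most like Dok1 (0.78), an adaptor of leukocyte signalling, Klra17 and Itm2b. Ms4a1 was most like Trgv1 (0.74), a T cell receptor gamma segment, and then the B cell genes Fcrl1 (0.74) and Cxcr5 (0.70), followed by Tmprss6 and Ly6d. Cd79a had the weakest neighbours, led by Srf at 0.69. Among the members themselves, Jchain and Iglv1 were the most alike pair (0.75), while Jchain and Xbp1 ran opposite (-0.50) and Cd79b bore little relation to either Jchain (-0.07) or Iglv1 (0.01).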

How the data were processed

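The 28 arrays were analysed from the deposited series table. Its log2 values come from the authors' own RMA summary, for which the submitters' processing notes name Partek 6.6. RNA was amplified in a two-step protocol per the labels' protocols, which can distort faint transcripts. Of 45141 probe sets (104 control), 28898 were paired with 1 gene, 551 with several and 15588 with none, which left 17097 genes, 7180 of them with several probe sets. The brightest probe set stands for a gene.

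A group-means model was fitted to all arrays and genes with limma 3.58.1 in R 4.3.3, with an intensity trend, two-sided tests and Benjamini-Hochberg adjustment at 0.05 over all genes, and was tested on simulated data. Genotype labels were also permuted exactly within tumour and day. The members and lists were chosen with earlier results of these data known. The named genes are all members, up to 4 genes of a list with the smallest adjusted p, and up to 5 genes most like each member. Igkj1, Igk-V21, Igha, Pax5, Mcpt8 and Irf4 levels by array were chosen after their values were seen. Alternatives covered probe sets, normalization, variance models, array weights, a filter on dim genes, the compared groups alone, a replicate block and single arrays left out. The replicate numbers were not taken as pairs.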

Additional observations from a re-analysis of the deposited data

Results flagged for a closer look

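The difference in genotype effect between tumours was called for 2 members by limma. It was 1.92 ± 0.64 for Iglv1 (adjusted p = 0.0455) and -0.25 ± 0.08 for Xbp1 (adjusted p = 0.04), B16 minus MC38, averaged over the 3 days of each. The days differ between the tumours, and the arrays of each tumour lie in several sets.

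The genotype effect differed between days of B16 for 2 members. At day 12 minus the early day the difference was 3.35 ± 0.84 for Jchain (adjusted p = 0.0148) and -1.14 ± 0.15 for Xbp1 (adjusted p = 4.6e-05). At day 12 minus day 18, a contrast chosen after seeing the data, it was 3.69 ± 0.76 for Jchain (adjusted p = 0.00312) and -0.82 ± 0.14 for Xbp1 (adjusted p = 0.000414), both by limma. The day 12 side rests on 2 arrays of each genotype.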

How the results depend on the processing

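Of 105 differences (7 genes in 15 comparisons), 23 were called, and 8 of these kept their call and direction under every alternative run for them; 18 of the 82 others were called by some alternative. The Xbp1 difference between tumours reversed to 0.0727 without the B16 day 12 arrays. The number of members called in B16, 3, was 1 without those arrays and 1 by exact permutation. In MC38, 1 became 2 with array weights or the compared groups only and 0 by exact permutation, and in early B16, 0 became 1 with array weights. With the compared groups only, B16 day 18 fell from 2 to 1, MC38 day 18 rose from 1 to 5, and MC38 day 18 minus day 6 rose from 0 to 1. The 2 calls for B16 minus MC38 became 0 with the mean of the probe sets, with no variance trend or without B16 day 12, and 1 with cyclic loess, the 75th percentile, a robust trend or the replicate block; the cause was not tested. Leaving out each array gave 0 to 2 in MC38, 0 to 1 in early B16, 1 to 2 at B16 day 18 (without control replicate 2 Cd79b replaced Iglv1 among the 2), 0 to 1 at MC38 day 18, 0 to 3 between tumours, 0 to 4 for B16 day 12 minus early, 0 to 1 for MC38 day 18 minus day 6 and 1 to 3 for the B16 day 12 minus early effect. Arrays with the same replicate number did not deviate together (r of -0.28 to 0.20), and the replicate block changed no other count of calls by more than 1.5 times. Groups of 2 or 3 arrays, and levels of Cd79a, Jchain and Iglv1 near background in MC38, limit what could be detected.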
